A study of Mus musculus with 6 samples.

Results

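The genes described here are Tpx2 and 8 other genes of mitosis, Aurka, Mki67, Top2a, Cdk1, Ccnb1, Ccnb2, Ccna2 and Birc5, taken by name from a table of 43346 genes. All 9 were found. Tpx2 was chosen by its difference between knockout and vehicle counts in these same libraries, and the others were added as genes of mitosis to ask whether they moved with it. The values of the 9 genes between the groups are therefore given as a description, with no test. RNA was sequenced from the gastrocnemius, a mixed-fibre calf muscle, of 6 male mice aged 6 months, 3 in each group and 1 library per mouse. All 6 mice carried Vdr alleles with loxP sites around exon 3 (Vdrfl/fl) and the actin iCre transgene Tg(ACTA1-cre/Esr1*)2Kesr, a Cre recombinase under the human skeletal actin promoter that is switched on by tamoxifen. The knockout group received tamoxifen at 100 mg/kg by intraperitoneal injection for 5 days, and the vehicle group received 10% ethanol in corn oil on the same days. Tissue was taken after functional tests that were run 10 days after the last injection. Cre acts in muscle fibres in this model, so other cells of the muscle were not meant to lose Vdr, and tamoxifen was given only to the knockout group. Mice given tamoxifen without Cre were not analysed here, so deletion, Cre activity and drug cannot be told apart.

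TPX2 is a microtubule-binding protein that RAN-GTP releases from importins around mitotic chromosomes. It then nucleates spindle microtubules and holds the kinase Aurora A, the product of Aurka, in its active form on the spindle. Dividing cells make TPX2 and Aurora A together with cyclin-dependent kinase 1 (Cdk1), the cyclins A2, B1 and B2, topoisomerase II alpha (Top2a), survivin (Birc5) and the Ki-67 protein (Mki67), and the transcripts of most of these genes peak in G2 and M phase. Muscle fibres are multinucleate and have left the cell cycle for good. Mitotic transcripts in adult muscle are usually ascribed to the few dividing mononucleate cells between the fibres.

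Promoters of mitotic genes are known to share a short element, the cell cycle genes homology region (CHR), through which the DREAM and MuvB complexes repress them in resting cells and activate them in G2, often next to CCAAT boxes bound by NF-Y. The RefSeq promoter table (GRCm38.p6) held 7 of the 9 genes, all but Tpx2 and Ccna2. The letters TTTGAA of the CHR were searched on both strands of 300 bases, 250 before and 50 after the annotated start. They were found in 5 of the 7, Aurka, Mki67, Top2a, Cdk1 and Ccnb2, and in 17.9% of all 32851 promoters of that length. CCAAT, also searched on both strands, was found in 6 of the 7, all but Birc5, and in 37.4% of all promoters. No match of one overlapped a match of the other in the 7 genes. The VDR direct repeat is the repeated hexamer to which the vitamin D receptor binds with its RXR partner. It had no exact match in the 7 and was found in 13 of the 32851 promoters. At that rarity the lack of a match in 7 genes shows nothing, and Tpx2 was not among them. The 250 bases before the start are shown for 3 genes picked by their reads. Aurka lay lower in knockout libraries as Tpx2 did, and the groups of Cdk1 overlapped. Ccnb1 had few reads, all from knockout libraries. Whether the letters bear on the reads was not tested. Capitals mark TTTGAA and CCAAT on either strand.
Aurka, chr2:172370571-172370820, minus strand: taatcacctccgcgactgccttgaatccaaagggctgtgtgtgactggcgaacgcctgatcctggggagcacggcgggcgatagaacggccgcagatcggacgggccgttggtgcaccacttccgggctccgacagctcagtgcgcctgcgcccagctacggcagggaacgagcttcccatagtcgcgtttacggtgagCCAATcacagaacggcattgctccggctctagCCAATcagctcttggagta
Cdk1, chr10:69352913-69353162, minus strand: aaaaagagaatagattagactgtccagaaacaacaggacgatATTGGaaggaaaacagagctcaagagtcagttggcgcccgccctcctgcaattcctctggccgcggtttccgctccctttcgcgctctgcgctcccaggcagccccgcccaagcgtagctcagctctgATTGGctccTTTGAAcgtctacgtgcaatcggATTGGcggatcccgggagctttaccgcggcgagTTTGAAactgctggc
Ccnb1, chr13:100786487-100786736, minus strand: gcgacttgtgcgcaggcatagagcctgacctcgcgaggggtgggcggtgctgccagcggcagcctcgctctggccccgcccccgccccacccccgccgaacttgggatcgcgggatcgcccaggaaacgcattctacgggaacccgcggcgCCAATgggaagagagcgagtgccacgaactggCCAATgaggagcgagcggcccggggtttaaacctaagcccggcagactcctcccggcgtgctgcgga
Cdk1 held 2 matches to TTTGAA before its start, beginning 71 and 15 bases upstream, and Ccnb1 held none. The match in Aurka began at base 33 after the start and is not in the stretch shown. A match is a description of letters, and binding was not measured. Only the exact letters TTTGAA were searched, so a promoter without a match is not shown to lack the element.

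The libraries held 30486874 to 39909535 counted reads, and levels are given as CPM, reads scaled to the library size with TMM factors. A count of 3 in a library, taken as the floor, was worth 0.0783 to 0.0929 CPM, and this floor covers counting error only. Knockout replicate 2 stood apart, with the fewest reads, and its top 10 genes took 15.1% of them where the top 10 of the other 5 libraries took 20.8% to 25.2%. Vdr itself, the gene the deletion targets, gave 52, 27 and 40 reads in knockout replicates 1, 2 and 3, against 46, 48 and 61 in vehicle replicates 1, 2 and 3, and these gene-wide counts do not single out the floxed exon, so they do not check the deletion. Defining genes of muscle fibres such as Acta1, Ckm and Ttn were present in each library, with a sum over 10 fibre markers of 98200 to 189300 CPM in knockout and 136600 to 160600 CPM in vehicle libraries. Of 15583 genes that passed a low-count filter, 0 (0.00%) had an adjusted p below 0.05 in edgeR's quasi-likelihood test of knockout against vehicle with Benjamini-Hochberg adjustment. The unadjusted p was below 0.05 in 1159 genes (7.44%), 3.42% of those tested with a lower and 4.02% with a higher value in knockout libraries, and DESeq2 called 109 genes after adjustment. The groups did not overlap in 1918 genes (12.3%), with knockout lower in 6.48% and higher in 5.83%, and the estimate was below 0 in 47.1%. P-values here measure only the spread between these mice.

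Aurka and Tpx2 had the highest levels of the 9 genes. Among 166 genes, the 9 and those of 5 further cell cycle lists, Aurka ranked 28 and Tpx2 ranked 59 by mean FPKM, below mitotic genes such as Pttg1 (39.5 FPKM), Ube2s (24.9 FPKM) and Bub3 (19.1 FPKM). Per length, as the deposited FPKM, Aurka averaged 2.84 ± 1.17 in knockout mice against 4.92 ± 0.668 in vehicle mice (SD, n = 3 per group), and Tpx2 averaged 0.509 ± 0.127 in knockout mice against 1.62 ± 0.350 in vehicle mice (SD, n = 3 per group). The mean FPKM over the 6 libraries was 3.88 for Aurka and 1.07 for Tpx2, followed by Ccna2 at 0.0985, Cdk1 at 0.0915, Ccnb2 at 0.0864, Birc5 at 0.0455, Mki67 at 0.0454, Top2a at 0.0443 and Ccnb1 at 0.0211. Aurka lay above Tpx2 in each of the 6 libraries, and the lowest Tpx2 value, 0.435 FPKM, lay above the highest value of any of the other 7 genes, 0.305 FPKM for Cdk1 in knockout replicate 2. Among those 7 the ranges over libraries overlapped, so their order is not distinguished. In all, 30 of their 42 values were 10 reads or fewer. Of 51 other spindle, kinetochore and cytokinesis genes, only Pttg1, Bub3, Ncapd2 and Smc4 had a mean FPKM above that of Tpx2, and the median of the 51 was 0.0597.

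**Figure D1:**
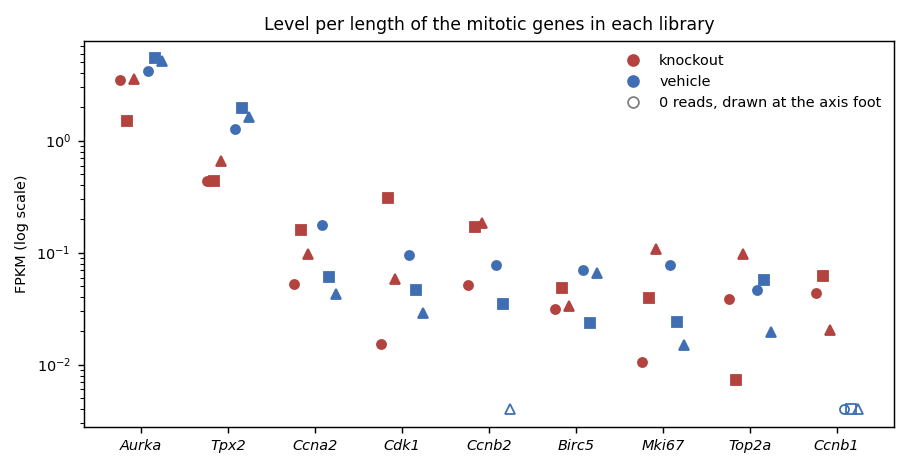
FPKM of the 9 mitotic genes in each library on a log scale, ordered by their mean, with knockout libraries at the left (red) and vehicle libraries at the right (blue) of each gene; circles, squares and triangles are replicates 1, 2 and 3, and open symbols at the foot of the axis are libraries with 0 reads. Aurka and Tpx2 lie above the other 7 genes in each library, and the libraries with 0 reads are the 3 vehicle libraries of Ccnb1 and vehicle replicate 3 of Ccnb2.

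Tpx2 (ENSMUSG00000027469, mm10 chr2:152847964-152895321, plus strand, protein coding) was the member with the clearest separation. It had 77, 62 and 108 reads in knockout replicates 1, 2 and 3, against 199, 343 and 303 reads in vehicle replicates 1, 2 and 3. Scaled to library size these were 2.24, 1.79 and 2.89 CPM in knockout libraries, against 6.16, 9.40 and 7.90 CPM in vehicle libraries. All 3 knockout libraries lay below all 3 vehicle libraries, and the highest knockout value was under the lowest vehicle value by more than the SD of either group. The means were 2.31 ± 0.548 CPM in knockout mice against 7.82 ± 1.62 CPM in vehicle mice (SD, n = 3 per group), and the fitted log2 fold change, knockout over vehicle, was -1.76 (SE 0.28, 95% interval -2.38 to -1.14). With each library left out in turn the log2 fold change ran from -1.96 to -1.61. These are the values that chose the gene, and non-overlap with knockout lower was found in 6.48% of all genes tested. No exon of another gene in the GENCODE M21 annotation overlapped an exon of Tpx2.

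Aurka (ENSMUSG00000027496, mm10 chr2:172356190-172370535, minus strand) was the other member whose knockout libraries all lay below the vehicle libraries. It had 330, 115 and 319 reads in knockout replicates 1, 2 and 3, against 354, 513 and 521 reads in vehicle replicates 1, 2 and 3. In CPM these were 9.60, 3.33 and 8.52 in knockout libraries and 10.96, 14.06 and 13.59 in vehicle libraries. Knockout replicate 2 was far below the others, while knockout replicate 1 and vehicle replicate 1 lay close together. The means were 7.15 ± 3.35 CPM in knockout mice against 12.9 ± 1.67 CPM in vehicle mice (SD, n = 3 per group), and the fitted log2 fold change, knockout over vehicle, was -0.85 (SE 0.34, 95% interval -1.62 to -0.07). Without knockout replicate 2 the log2 fold change was -0.51, and without knockout replicate 1 it was -1.12.

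Tpx2 was also lower relative to its partner. The ratio of Tpx2 to Aurka FPKM was 0.126, 0.292 and 0.183 in knockout replicates 1, 2 and 3, against 0.304, 0.362 and 0.315 in vehicle replicates 1, 2 and 3. The knockout ratios all lay below the vehicle ratios, with knockout replicate 2 and vehicle replicate 1 the closest to each other. Whether the fold changes of the genes differ was not tested, because both come from the contrast that chose Tpx2.

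**Figure D2:**
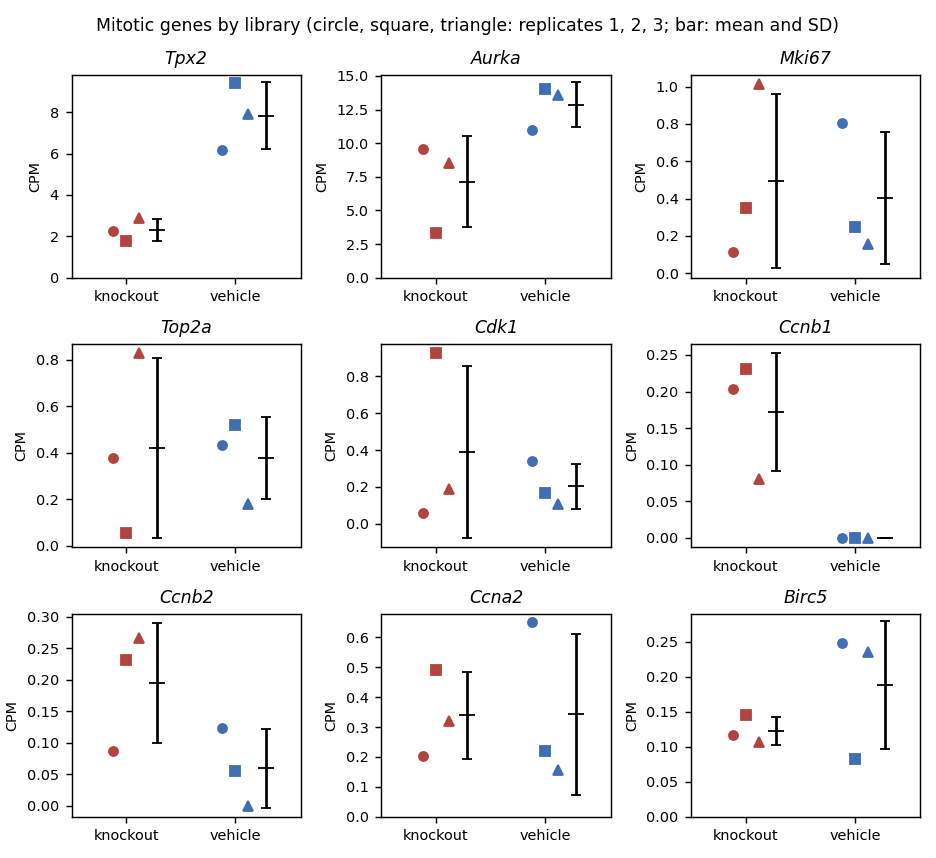
CPM of each of the 9 mitotic genes in the 3 knockout libraries (left, red) and the 3 vehicle libraries (right, blue), each panel with its own axis; the bars are the mean and SD of each group. Tpx2 and Aurka lie lower in all knockout libraries, Ccnb1 has reads only in knockout libraries, and the groups overlap in the other 6 panels.

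The cyclins and their kinase had few reads, and in none of them did all knockout libraries lie below all vehicle libraries. Counts this sparse cannot show whether these genes move with Tpx2. Cdk1 (ENSMUSG00000019942, mm10 chr10:69336635-69352938, minus strand), the kinase that drives entry into mitosis, had 2, 32 and 7 reads in knockout replicates 1, 2 and 3, against 11, 6 and 4 in vehicle replicates 1, 2 and 3. The groups overlapped, with 32 of the 41 knockout reads in knockout replicate 2. The pooled, size-scaled ratio of knockout to vehicle reads was 1.97 (exact 95% interval 1.14 to 3.50, counting error only), and without knockout replicate 2 it was 0.639.

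Ccnb1 (ENSMUSG00000041431, mm10 chr13:100778650-100786570, minus strand), which encodes cyclin B1, had 7, 8 and 3 reads in the knockout libraries and 0 in each of the 3 vehicle libraries. The groups did not overlap, and the value in knockout replicate 3 was at the floor of 3 reads per library. Non-overlap with knockout higher was found in 5.83% of all genes tested, which do not include genes as sparse as Ccnb1. With 18 reads in all, nothing is read from its non-overlap. Ccnb2 (ENSMUSG00000032218, mm10 chr9:70407689-70421554, minus strand), which encodes cyclin B2, had 3, 8 and 10 reads in knockout replicates 1, 2 and 3, against 4, 2 and 0 in vehicle replicates 1, 2 and 3. Its groups overlapped, and the pooled ratio was 3.52 (exact 95% interval 1.38 to 10.7, counting error only), ranging from 2.26 without vehicle replicate 3 to 7.39 without vehicle replicate 1. Its pseudogene Ccnb2-ps drew 3, 0 and 3 reads in knockout and 0, 0 and 3 in vehicle libraries, so reads of the copies may be split.

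Ccna2 (ENSMUSG00000027715, mm10 chr3:36564866-36572150, minus strand), which encodes cyclin A2, had 7, 17 and 12 reads in knockout replicates 1, 2 and 3, against 21, 8 and 6 in vehicle replicates 1, 2 and 3. The groups overlapped widely, at 0.339 ± 0.145 CPM in knockout mice against 0.342 ± 0.269 CPM in vehicle mice (SD, n = 3 per group), and the fitted log2 fold change, knockout over vehicle, was 0.0038 (SE 0.67). It was 0.84 when vehicle replicate 1 was left out, and below 0 when knockout replicate 2 (-0.36), vehicle replicate 2 (-0.24) or vehicle replicate 3 (-0.35) was. Its exons share 510 bases with Exosc9 on the opposite strand, and the strand setting of the counting is not given in the sources used here.

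The genes of chromosome structure and segregation were as sparse. Mki67 (ENSMUSG00000031004, mm10 chr7:135689788-135716379, minus strand), whose protein coats mitotic chromosomes and serves as the usual stain for cycling cells, had 4, 12 and 38 reads in knockout replicates 1, 2 and 3, against 26, 9 and 6 in vehicle replicates 1, 2 and 3. The highest library of each group, knockout replicate 3 and vehicle replicate 1, lay far above the rest of its own group. The log2 fold change was 0.32 (SE 0.85), and leaving out knockout replicate 3 gave -0.78, vehicle replicate 3 -0.08 and vehicle replicate 1 1.28. Top2a (ENSMUSG00000020914, mm10 chr11:98992943-99024189, minus strand), which untangles sister chromatids, had 13, 2 and 31 reads in knockout replicates 1, 2 and 3, against 14, 19 and 7 in vehicle replicates 1, 2 and 3. The lowest and the highest library were both from knockout mice, and the log2 fold change was 0.17 (SE 0.81). Leaving out knockout replicate 3 gave -0.79, leaving out vehicle replicate 3 gave -0.17, and leaving out knockout replicate 2 gave 0.68. Its exons share 122 bases with the gene model Gm23451 on the same strand. Birc5 (ENSMUSG00000017716, mm10 chr11:117849251-117855743, plus strand), the survivin subunit of the chromosomal passenger complex, had 4, 5 and 4 reads in knockout replicates 1, 2 and 3, against 8, 3 and 9 in vehicle replicates 1, 2 and 3. The groups overlapped, and its pooled ratio was 0.655 (exact 95% interval 0.299 to 1.38, counting error only).

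Of the 9 genes, 5 passed the low-count filter (Tpx2, Aurka, Mki67, Top2a and Ccna2), and Cdk1, Ccnb1, Ccnb2 and Birc5 did not. The summed reads of the 8 members other than Tpx2 gave 10.8, 5.76 and 11.3 CPM in knockout replicates 1, 2 and 3, against 13.6, 15.4 and 14.4 CPM in vehicle replicates 1, 2 and 3. That sum, 9.28 ± 3.06 CPM in knockout mice against 14.5 ± 0.892 CPM in vehicle mice (SD, n = 3 per group), had a log2 ratio of -0.64, or -0.39 when knockout replicate 2 was left out. It was mostly Aurka, which supplied 57.8% to 89.2% of its reads in knockout and 80.8% to 94.2% in vehicle libraries. Without Aurka as well, the 7 remaining genes summed to 1.16, 2.43 and 2.81 CPM in knockout replicates 1, 2 and 3, against 2.601, 1.29 and 0.835 CPM in vehicle replicates 1, 2 and 3. These sums overlapped between the groups, at 2.13 ± 0.860 CPM in knockout mice against 1.57 ± 0.918 CPM in vehicle mice (SD, n = 3 per group), where Tpx2 did not. The lowest of the 7-gene sums in each group were knockout replicate 1 and vehicle replicate 3, whereas the lowest Tpx2 values were knockout replicate 2 and vehicle replicate 1.

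Slow-fibre markers also varied between these libraries, and Tpx2 and Aurka are shown beside them. All 10 had a higher estimate in knockout libraries, 2 of them at an unadjusted p below 0.05, beside 4.02% of all genes tested. The summed CPM of 10 slow-fibre markers, among them the slow myosin Myh7 and the slow troponin Tnni1, was 6201, 32830 and 10350 in knockout replicates 1, 2 and 3, against 10160, 1483 and 1233 in vehicle replicates 1, 2 and 3. Knockout replicate 2 had the most slow-fibre RNA and the lowest Tpx2 and Aurka of all libraries, and vehicle replicate 1 had the most slow-fibre RNA and the lowest Tpx2 and Aurka of its group. Knockout replicate 1 held less slow-fibre RNA than vehicle replicate 1 and had 2.24 CPM of Tpx2, against 6.16 CPM in vehicle replicate 1, whereas Aurka stood at 9.60 CPM in knockout replicate 1 and 10.96 CPM in vehicle replicate 1. The part of slow-fibre content in the Tpx2 and Aurka values was not tested. In bulk muscle, fewer cells of a type and less RNA per cell cannot be told apart.

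**Figure D3:**
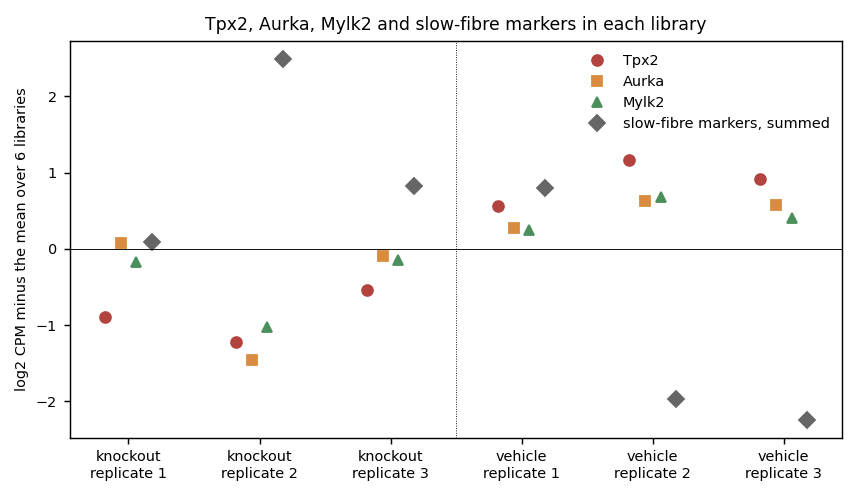
log2 CPM of Tpx2, Aurka, the neighbouring gene Mylk2 and the sum of 10 slow-fibre markers in each library, each minus its own mean over the 6 libraries; knockout replicates are at the left and vehicle replicates at the right of the dotted line. Tpx2 lies below its mean in the 3 knockout libraries and above it in the 3 vehicle libraries, and slow-fibre markers are highest in knockout replicate 2.

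Cells that might divide between the fibres were followed by their markers. Of 12 macrophage markers, such as Csf1r and C1qa, 0 were absent, and their sum was 51.0, 161 and 156 CPM in knockout replicates 1, 2 and 3, against 74.6, 60.5 and 41.2 CPM in vehicle replicates 1, 2 and 3. Knockout replicate 1 lay within the vehicle range of this sum. Of the 11 macrophage markers tested, 8 had a higher value in knockout libraries at an unadjusted p below 0.05, again beside 4.02% of all genes. By CPM, the highest library of Mki67, Top2a and Ccnb2 was knockout replicate 3 and that of Cdk1 and Ccnb1 was knockout replicate 2, the libraries with the highest sums of macrophage markers and of fibro-adipogenic progenitor markers. The highest library of Ccna2 and Birc5 was vehicle replicate 1. Top2a was lowest of all libraries in knockout replicate 2, at 0.0579 CPM. Cdk1 was lower in knockout replicate 3, at 0.187 CPM, than in vehicle replicate 1, at 0.341 CPM. The 10 satellite cell markers summed to 2473 to 2920 CPM in knockout and 2707 to 3603 CPM in vehicle libraries. Most of that sum was Des, which fibres also make, at 2214 to 2664 CPM in knockout and 2386 to 3311 CPM in vehicle libraries. The other 9 summed to 256 to 300.5 CPM in knockout and 292 to 321 CPM in vehicle libraries. Most of that was in turn Sdc4, at 126.9 to 186.5 CPM in knockout and 156.7 to 196.5 CPM in vehicle libraries, and Itga7. Itga7 had 77.2 to 85.18 CPM in knockout and 67.15 to 107.6 CPM in vehicle libraries, so the sum follows these genes and hardly the scarcer markers. Of the 10, 5 had a higher and 5 a lower estimate in knockout, and 0 had an unadjusted p below 0.05 in edgeR. Pax7, the transcription factor of muscle stem cells, had 2.39, 3.15 and 2.64 CPM in knockout replicates 1, 2 and 3, against 2.04, 2.44 and 1.23 CPM in vehicle replicates 1, 2 and 3, and its groups overlapped. The calcitonin receptor gene Calcr did not overlap, at 0.785 to 0.908 CPM in knockout and 0.339 to 0.630 CPM in vehicle libraries, while non-overlap with knockout higher was found in 5.83% of all genes. The early myogenic factors Myf5 and Myod1 had log2 fold changes of -0.79 and -0.63 with overlapping groups. The 12 endothelial markers summed to 465 to 551 CPM in knockout and 415 to 526 CPM in vehicle libraries, with 8 of 12 estimates higher in knockout and 1 unadjusted p below 0.05, of a lower value. The 10 markers of fibro-adipogenic progenitors summed to 1249, 2989 and 2186 CPM in knockout replicates 1, 2 and 3, against 1724, 1752 and 1280 CPM in vehicle replicates 1, 2 and 3. All 10 had a higher estimate in knockout, 2 of them at an unadjusted p below 0.05, and their median log2 fold change was 0.59, beside 0.02 for all genes tested. The 9 erythroid markers summed to 532 to 3186 CPM in knockout and 605 to 3609 CPM in vehicle libraries. The 10 lymphocyte markers summed to 2.07 to 3.34 CPM in knockout and 0.913 to 4.74 CPM in vehicle libraries, with Cd3d, Cd3g, Cd8a and Ms4a1 at 3 reads or fewer in each library and 1 of the 10 at 0 throughout. The part of these cells in the mitotic genes was not tested.

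Tpx2 lies on chromosome 2 between Bcl2l1, which encodes the survival protein BCL-XL and lies 16235 bases upstream, and Mylk2, the skeletal muscle myosin light chain kinase, which starts 16030 bases downstream on the same strand. Mylk2 lay lower in all knockout libraries, at 614, 339 and 624 CPM in knockout replicates 1, 2 and 3, against 814, 1107 and 910 CPM in vehicle replicates 1, 2 and 3 (log2 fold change -0.84, SE 0.28; edgeR adjusted p = 0.628). Bcl2l1 had 30.7, 53.8 and 38.3 CPM in knockout replicates 1, 2 and 3, against 31.9, 23.1 and 26.3 CPM in vehicle replicates 1, 2 and 3, with a positive estimate and overlapping groups (log2 fold change 0.60, SE 0.23; edgeR adjusted p = 0.645). Neither passed the threshold. Of the other neighbours listed, the phosphatase gene Dusp15 averaged 0.717 ± 0.134 CPM in knockout mice against 1.37 ± 0.588 CPM in vehicle mice (SD, n = 3 per group), with no overlap between the groups. Mylk2 and Dusp15 are thus 2 of 8 tested neighbours without overlap, beside 12.3% of all genes and 6.48% with knockout lower, and nothing is read from a count this small. Id1, Cox4i2, Foxs1, Pdrg1 and H13 had log2 fold changes of 0.12, 0.47, -0.43, -0.28 and -0.22 with overlapping groups, and Ttll9 had 2 reads or fewer in each library. The other tested neighbours did not pass the threshold either.

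No gene of the wider cell cycle programme passed the test. Across 5 lists of 157 genes other than the 9 members, 116 passed the low-count filter and 0 of them had an adjusted p below 0.05 in edgeR or in DESeq2. Over all 15583 genes tested, 0 passed in edgeR and 109 in DESeq2, so a count of 0 is not particular to these lists. The unadjusted p was below 0.05 in 4 of the 116, or 3.45%, beside 7.44% of all genes tested. The groups did not overlap in 10 of the 116, 8.62%, beside 12.3% of all genes. The 116 had a median log2 fold change of 0.0030, beside 0.02 for all genes tested. None of these shares, and none of the counts given below for each list, is read as particular to the lists.

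In the TPX2 and Aurora A module, which holds the RAN gradient, importins, Aurora A activators and the augmin complex, 20 of 23 genes were tested, 9 had a lower estimate in knockout, 0 passed, 0 had an unadjusted p below 0.05 and the median log2 fold change was 0.0014. Ran, the GTPase that frees TPX2 from importins, averaged 92.8 ± 13.4 CPM in knockout mice against 112 ± 17.2 CPM in vehicle mice (SD, n = 3 per group), and Rcc1, its exchange factor, 12.7 ± 0.732 CPM in knockout mice against 14.6 ± 0.985 CPM in vehicle mice (SD, n = 3 per group). Their log2 fold changes were -0.27 (SE 0.19) and -0.21 (SE 0.16), and Rcc1 did not overlap between the groups. Kpnb1, which encodes importin beta, was at 0.03 (SE 0.17). The augmin subunits Haus7 and Haus8 were at -0.24 (SE 0.20) and 0.68 (SE 0.33). Plk1, the kinase that Aurora A activates on entry into mitosis, had 3, 15 and 5 reads in knockout replicates 1, 2 and 3, against 3, 8 and 4 in vehicle replicates 1, 2 and 3, and was chosen for mention after its values were seen. Its groups overlapped.

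Among the spindle, kinetochore and cytokinesis genes, 22 of 51 were tested, 10 had a lower estimate, 0 passed, 1 had an unadjusted p below 0.05 and the median was 0.01. Those of highest mean CPM were Pttg1, which encodes securin, at -0.17 (SE 0.21), and the checkpoint gene Bub3 at -0.03 (SE 0.15). The kinesin gene Kif20b had the smallest p of the list and lay the other way from Tpx2, at 0.436, 0.579 and 0.294 CPM in knockout replicates 1, 2 and 3, against 0.186, 0.137 and 0.0783 CPM in vehicle replicates 1, 2 and 3 (log2 fold change 1.69, SE 0.63; edgeR adjusted p = 0.643). The kinetochore gene Spc24 was at -0.85 (SE 0.40).

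Among regulators of mitotic entry and exit, 23 of 27 genes were tested, 15 had a lower estimate, 0 passed, 0 had an unadjusted p below 0.05 and the median was -0.06. The pocket protein gene Rbl2 and the E2F partner Tfdp1, both of which act in the DREAM complex, were at 0.097 (SE 0.16) and -0.22 (SE 0.20). Ube2s, which extends ubiquitin chains for the anaphase-promoting complex, was at -0.37 (SE 0.20), and Wee1, the kinase that holds CDK1 inactive, at 0.36 (SE 0.30).

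Of the S phase and replication genes, 36 of 40 were tested, 16 had a lower estimate, 0 passed, 2 had an unadjusted p below 0.05 and the median was 0.08. Pcna, the sliding clamp of DNA polymerase, averaged 19.4 ± 1.93 CPM in knockout mice against 24.8 ± 1.29 CPM in vehicle mice (SD, n = 3 per group) and did not overlap between the groups (log2 fold change -0.36, SE 0.15; edgeR adjusted p = 0.664). The transcription factor gene E2f2 was at -1.25 (SE 0.44; edgeR adjusted p = 0.633), with 1.66, 0.724 and 0.828 CPM in knockout replicates 1, 2 and 3, against 3.31, 2.82 and 1.51 CPM in vehicle replicates 1, 2 and 3. Rrm1, the large subunit of ribonucleotide reductase, was at -0.19 (SE 0.16). The summed list did not overlap between the groups, at 180, 187 and 182 CPM in knockout libraries and 188, 200 and 198 CPM in vehicle libraries. The gap was narrow, from 187.1 CPM in knockout replicate 2 to 188.2 CPM in vehicle replicate 1. Rrm1 and Pcna, the genes of highest mean CPM, weigh most in the sum, while 20 of the 36 tested genes had a higher estimate in knockout. No share over other sets of genes was computed, so nothing is read from the sum.

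Of the G1 cyclins, kinases and inhibitors, 15 of 16 were tested, 6 had a lower estimate, 0 passed, 1 had an unadjusted p below 0.05 and the median was 0.12. Cdkn1a, which encodes the cell cycle inhibitor p21, had 69.1, 94.9 and 92.1 CPM in knockout replicates 1, 2 and 3, against 89.1, 126 and 189 CPM in vehicle replicates 1, 2 and 3 (log2 fold change -0.66, SE 0.27; edgeR adjusted p = 0.651). Its groups overlapped at vehicle replicate 1. Ccng1, a p53-induced cyclin and the gene of highest mean CPM in the list, was at 0.12 (SE 0.25), and Cdkn2c, which encodes the CDK4 and CDK6 inhibitor p18, was at -0.40 (SE 0.27).

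**Figure D4:**
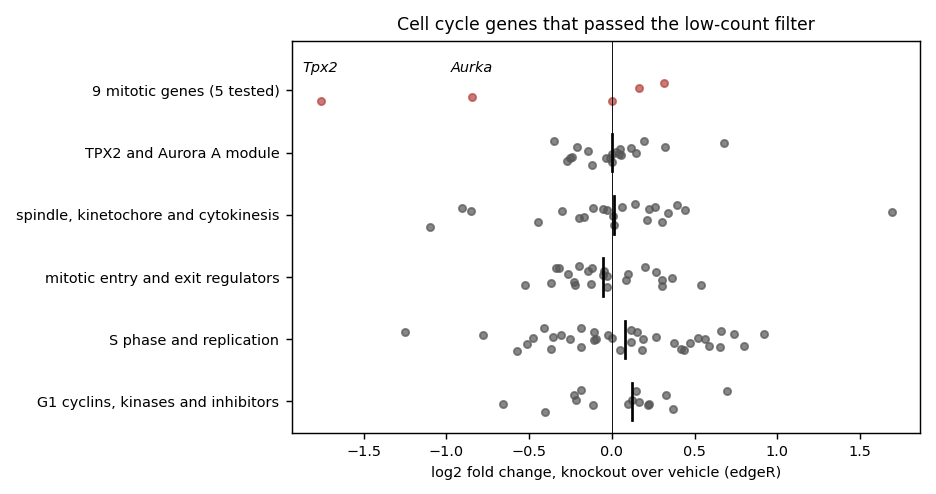
log2 fold change, knockout over vehicle, of each gene that passed the low-count filter (points) in the set of 9 mitotic genes, of which 5 were tested, and in 5 further cell cycle lists, each of these 5 with its median as a black bar. Tpx2 at -1.76 lies below all points of the other lists, whose medians run from -0.06 to 0.12.

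The 5 named genes whose pattern was most like that of Tpx2 were neither mitotic members nor genes of the cell cycle lists. Genes below the low-count filter, among them Cdk1, Ccnb1, Ccnb2 and Birc5, were not compared. Likeness was the root-mean-square difference of log2 CPM, each gene centred on its own mean over the 6 libraries, among 15582 genes, and it follows the same contrast that chose Tpx2. The 5 named protein-coding genes nearest to Tpx2 were Impact, a regulator of translational control, at 0.25, Mib1, a ubiquitin ligase of Notch signalling, at 0.25, Mss51, a skeletal muscle gene, at 0.25, the transcriptional repressor Bcl6 at 0.27 and the kinase gene Pim1 at 0.28. Mss51 averaged 117 ± 50.4 CPM in knockout mice against 357 ± 106 CPM in vehicle mice (SD, n = 3 per group), and Bcl6 averaged 41.2 ± 5.84 CPM in knockout mice against 97.4 ± 19.4 CPM in vehicle mice (SD, n = 3 per group). By the same measure Mylk2 ranked 84 at 0.46 and Aurka ranked 161 at 0.52. The other tested members were far down the list, with Top2a at rank 11830, Ccna2 at 13558 and Mki67 at 14524. Those genes had 2 to 38 reads per library, and counting error at so few reads widens the difference. The measure also depends on the size of the fold. Their ranks therefore cannot show whether they move with Tpx2.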

How the data were processed

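Polyadenylated RNA of 6 gastrocnemius muscles was sequenced after Illumina TruSeq Stranded library preparation, as the labels' protocols state. The deposited table holds 43346 genes with a raw read count and an FPKM value per library, in mm10. The tools named, per the submitters' processing notes, are featureCounts (Subread 1.5.1), STAR 2.6.1c and bcl2fastq. Neither annotation release nor strand setting is given in the sources used here. The authors' FPKM equalled the count over the listed length plus 1 base and the column total, so it carries no further normalization.

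Columns were matched to samples by title and groups taken from the recorded phenotype. Replicate numbers are in accession order and pair nothing. Each library is a separate mouse, and no libraries had identical counts. Counts were filtered with filterByExpr (minimum count 10, minimum total 15; 15583 genes kept), scaled by TMM (factors 0.912 to 1.13) and fitted with edgeR 4.0.16 in R 4.3.3 (robust quasi-likelihood, two-sided, Benjamini-Hochberg over all genes kept, threshold 0.05). The procedure was also run on counts simulated from its own fitted dispersions, which checks the code and not the calls in these data. Standard errors derive from the F statistic. Genes under the filter are given as reads, with exact binomial 95% intervals on pooled ratios. Alternatives used DESeq2 1.42.0, limma 3.58.1, other factors and filters, and leaving out each library.

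The members and gene lists were chosen with earlier results of these data known. Named genes were all 9 members, the listed neighbours of Tpx2, from each cell cycle list the 2 of highest mean CPM and the 2 of smallest p (4 for the TPX2 and Aurora A module), and the 5 genes most like Tpx2, unnamed models and pseudogenes left out. Of the list symbols, 5 matched the table under an older name. Ncapd2, Smc4, Plk1 and the marker genes named were chosen after their values were seen. Promoter sequences are from RefSeq (GRCm38.p6).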

Additional observations from a re-analysis of the deposited data

How the results depend on the processing

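The log2 fold change of Tpx2 stayed below 0 under all 14 alternatives, from -1.96 to -1.61 with a library left out, and from -1.78 to -0.79 otherwise. The value of -0.79 came from limma on log2(FPKM + 1), where the pseudocount is close to the gene's own level. Aurka stayed below 0 under all 14, from -1.12 to -0.51. The groups did not overlap in either gene, so leaving out a library could hardly turn the sign, and Tpx2 was chosen by this difference. Mki67 and Top2a turned below 0 in 2 of 6 fits that left out a library and Ccna2 in 3 of 6, and Ccna2 also with DESeq2 size factors, the DESeq2 Wald test and no low-count filter. The 8-gene sum without Tpx2 had a log2 ratio of -0.64, from -0.81 to -0.39 over its 9 alternatives. The 7-gene sum without Aurka had 0.44, from 0.13 to 1.01 over alternatives chosen after seeing the data.

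The count of genes past the adjusted threshold, 0 in edgeR with TMM, was 4 with DESeq2 size factors, 109 with the DESeq2 Wald test, 29 with no low-count filter and 0 to 24 with a library left out, 24 without knockout replicate 1 and 6 without knockout replicate 2. The count at an unadjusted p below 0.05, 1159, was 594 to 1940 with a library left out (594 without vehicle replicate 3, 738 without knockout replicate 2, 748 without vehicle replicate 2, 1940 without knockout replicate 1). In the 5 cell cycle lists 0 genes passed under any of the 14 alternatives. Only 0 to 109 of all genes tested passed in those fits, so this 0 is not particular to the lists. Their count at an unadjusted p below 0.05, 4, was 1 with either FPKM fit and 2 to 10 with a library left out, 10 without knockout replicate 1 and 2 without knockout replicate 3, vehicle replicate 2 or vehicle replicate 3. Only 1 of the 5 genes most like Tpx2 was among the 5 highest by Pearson correlation, Bcl6. The scalings moved the median of all genes by less than 0.1. No paired analysis was possible because the columns carry no replicate numbers shared between groups. Ccnb1, with 0 reads in each vehicle library, could not change direction when a library was left out. Of the other sparse members, Mki67, Top2a, Cdk1 and Ccna2 changed direction when 1 or another library was left out, and Ccnb2 and Birc5 did not. The causes of these shifts were not tested.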
